A study of Mus musculus with 6 samples.

Results

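Chemokine receptors of effector T cells were examined in T helper 2 (Th2) cultures with and without Ikzf4, the gene of the Ikaros-family transcription factor Eos. The 7 receptor genes were Ccr4, Ccr8, Ccr2, Ccr6, Ccr9, Cxcr4 and Cxcr6, taken by gene symbol from the deposited table of 14868 genes. Of these 7, 5 had a row. Ccr2 and Ccr9 had none, neither by symbol nor by Ensembl identifier, and were not analysed here. Cxcr3, Cxcr5 and Ccr7 were left out by the choice of members.

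Naïve CD4+ T cells, helper T cells that had not yet met antigen, came from wild-type (WT) or Ikzf4-/- mice on a C57BL/6J background. Both groups had the same culture: 10 ng/mL interleukin-4 (IL-4), which drives Th2 differentiation, and 10 µg/mL of an antibody against interferon gamma, which blocks the Th1 route. The cells were stimulated through the T cell receptor with anti-CD3 (5 µg/mL) and through its partner CD28 with anti-CD28 (2 µg/mL), both bound to the plate, and were taken at 72 h. Total RNA of each genotype gave 3 libraries. The labels give no age or sex of the mice, no design of the Ikzf4 allele and no word on whether replicates came from separate animals, so p-values measure the spread between these libraries, which may be technical.

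Chemokine receptors are seven-transmembrane receptors that couple mainly to inhibitory G proteins and steer cells along gradients of small secreted proteins, the chemokines. T helper subsets carry different sets of them: CCR4 and CCR8 are typical of Th2 cells and of regulatory T cells in skin and mucosa, CCR6 marks Th17 cells, CXCR6 is found on effector and tissue-resident T cells, and CXCR4 is a widely expressed receptor for homing to bone marrow and lymphoid tissue. Receptor signals run through G proteins, phosphoinositide 3-kinase gamma and Rac, and are switched off by receptor kinases, arrestins and regulators of G protein signalling.

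Values are normalized read counts, that is, reads per gene divided by 1 scaling factor per library. The values of each library were whole multiples of 1 step. If that step stands for 1 read, the listed genes held 34701390 to 40604346 reads per library. This reading was not accepted for Ikzf4-/- replicates 1 and 3, whose step was close to 1. Ikzf4 itself was at 483 to 756 in WT and at 10.5 to 38.2 in Ikzf4-/- cells, so each library matched its label. WT replicate 1 stood apart: on the first principal component of all tested genes, which held 40.2% of the variance, the WT libraries lay at -41.3, -12.5 and -5.26 and the Ikzf4-/- libraries at 11.1, 17.1 and 30.8. Of the 6 CD4 T cell markers checked, 6 had a row, with a summed count of 75786 to 78056 in WT and 80005 to 82179 in Ikzf4-/- libraries. No myeloid marker of 7 had a row. The B cell markers Ms4a1 and Pax5 and the natural killer cell markers Ncr1, Klrb1c and Klra8 had none either. Other markers of these cells did: 2 of 5 B cell markers had a row, summing to 51.1 to 83.6 in WT and 58.6 to 90.4 in Ikzf4-/- libraries. Of 5 natural killer cell markers 2 had a row, at 353 to 1010 and 215 to 577, most of it from Gzma, and these ranges overlapped. All 3 CD8 T cell markers had a row, at 385 to 682 and 429 to 658.

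Ccr8 was the receptor that passed the test. Its transcript fell by 24.9% in Ikzf4-/- cells, and the abundant Ccr4 transcript had a smaller difference in the same direction that missed the threshold. Cxcr4 had the widest difference, to 0.524 times the WT level, and Ccr6 ran the other way at 1.73 times the WT level, but neither passed. Each gene was tested in a fit across 14864 genes (limma on log2 values, Benjamini-Hochberg adjustment), and an adjusted p under 0.05 made a call. By this rule 1 of the 5 tested receptors was called, against 1.77% of all genes tested, with 1.2% called lower and 0.572% called higher. The genotypes did not overlap for 4 of the 5 receptors, 3 lower and 1 higher in Ikzf4-/- cells. Over all genes tested, 23.1% did not overlap, 12.2% lower and 11% higher. Of the 263 genes called in all, 32.3% were higher in Ikzf4-/- cells, a share that was 42.8% with equal library totals and 42.5% with a correction for GC content and transcript length. The median log2 fold change was -0.33 over the 5 receptors and 0.00 over all genes tested.

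**Figure D1:**
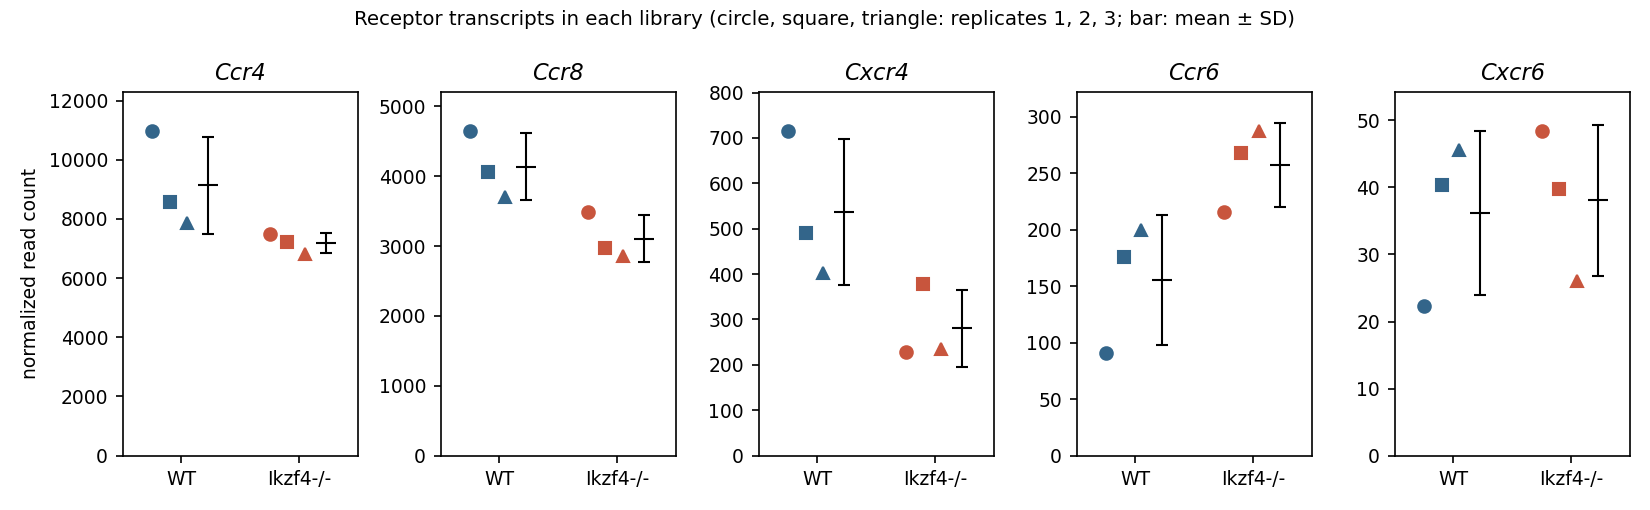
Normalized read count (vertical axes, each from 0) of the 5 measured receptors in 3 WT libraries (blue) and 3 Ikzf4-/- libraries (red); symbols mark replicates 1 to 3 and bars the mean ± SD. The genotypes do not overlap for Ccr4, Ccr8, Cxcr4 and Ccr6, overlap for Cxcr6, and WT replicate 1 is the extreme WT library in each panel.

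Ccr8 encodes the receptor for CCL1 and, in mice, for CCL8. The gene (ENSMUSG00000042262) lies on chromosome 9 from 120092114 to 120094906, on the plus strand of GRCm38. Its normalized count was 4647, 4054 and 3708 in WT replicates 1, 2 and 3, against 3493, 2968 and 2856 in the same order in Ikzf4-/- cells. The lowest WT library lay above the highest Ikzf4-/- library by a small margin, and replicate 1 was the highest of each genotype. The mean was 4136 ± 475 (SD, n = 3) in WT and 3106 ± 340 (SD, n = 3) in Ikzf4-/- cells. The log2 fold change was -0.41 (SE 0.09, 95% interval -0.61 to -0.21, adjusted p by limma = 0.0490). The call sat at the threshold. It was lost with equal library totals (adjusted p by limma = 0.0557), a pseudocount of 0.1 (0.0516) or a correction for GC content and transcript length (0.0661), and 5 of the 6 fits that each left out 1 library lost it too. Without WT replicate 1 the log2 fold change was -0.33 (adjusted p by limma = 0.0624), and without WT replicate 2, Ikzf4-/- replicate 1, 2 or 3 the adjusted p was 0.104, 0.0553, 0.156 and 0.174. For Ccr8 the authors' deposited table held -0.41 and an adjusted p of 0.000317.

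Ccr4 encodes the receptor for CCL17 and CCL22. The gene (ENSMUSG00000047898) lies on the same chromosome from 114490316 to 114504916, on the minus strand. Its normalized count was 10971, 8555 and 7869 in WT against 7490, 7222 and 6810 in Ikzf4-/- cells. All WT libraries were above all Ikzf4-/- libraries, with WT replicate 1 well above the rest and the Ikzf4-/- libraries close together. The mean was 9132 ± 1630 (SD, n = 3) in WT and 7174 ± 342 (SD, n = 3) in Ikzf4-/- cells, a log2 fold change of -0.33 (SE 0.10, 95% interval -0.55 to -0.12, adjusted p by limma = 0.112). Ccr4 was thus not called, and without WT replicate 1 its log2 fold change was -0.19 (adjusted p by limma = 0.122), a smaller difference than with that library. Without WT replicate 3 it was called (-0.43, adjusted p by limma = 0.0317). The authors' deposited table gave -0.35 with an adjusted p of 0.00620, under the threshold. By that table, calls fell on 3 of the 5 receptors, Ccr4 and Ccr8 lower and Ccr6 higher, against 6.34% of the genes with an adjusted p there, 3.89% lower and 2.45% higher.

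In cells sequenced in bulk, fewer cells that carry a receptor and less of its RNA per cell cannot be told apart. Ccr4 and Ccr8 mark regulatory as well as Th2 cells, so the markers of both are given beside them. Of 5 regulatory T cell markers, 5 had a row, and their summed count was 49216 to 68984 in WT and 40424 to 43833 in Ikzf4-/- libraries, almost all of it from Il2ra and Tnfrsf18, which activated T cells express in general. Of these markers 1 was called, Tnfrsf18, or GITR, where 1.77% of all genes tested were called. It fell from 14513 ± 581 to 12143 ± 476 (SD, n = 3 each), a log2 fold change of -0.26 (adjusted p by limma = 0.0306). Its call was lost with the GC content and length correction (0.0534) and without WT replicate 2 (0.0516) or Ikzf4-/- replicate 1, 2 or 3 (0.0903, 0.0505 and 0.121). Il2ra, the interleukin-2 receptor alpha chain, did not overlap between genotypes, with a log2 fold change of -0.47 (adjusted p by limma = 0.0869), and it was called without WT replicate 1 (-0.28, 0.0308) or 3 (-0.59, 0.0317). Foxp3, the defining factor of regulatory T cells, was at 36.2, 97.0 and 42.7 in WT and 43.4, 31.4 and 48.2 in Ikzf4-/- libraries, with no separation. Among the remaining regulatory markers Ctla4 pointed lower and Ikzf2 higher in Ikzf4-/- cells, and both overlapped between genotypes. Of 5 Th2 markers, 5 had a row, with a summed count of 23373 to 32857 in WT and 16315 to 19482 in Ikzf4-/- libraries, mostly from Il4ra and Gata3. Of the 5, 3 were called, all lower in Ikzf4-/- cells, where 1.2% of all genes tested were called lower. Gata3 was not called, and its genotypes overlapped. The part of either marker set in the receptor values was not tested.

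The upstream sequence of the receptors whose genotypes did not overlap was read from RefSeq promoters (GRCm38.p6), and 3 genes are shown because they carry the contrast between lower Ccr8 and Ccr4 and higher Ccr6 counts. Each run is 200 bases, 5′ to 3′ on the gene's strand, from 250 to 51 bases before a RefSeq transcription start, and none overlaps an exon annotated in GENCODE M21. The Ccr4 window and the second Ccr6 window nevertheless lie inside the gene as annotated there, downstream of its annotated 5′ end. Capitals mark matches on either strand to 5 motifs: the letters AGATAA for factors of the GATA family, TTCNNNGAA for STAT factors, TGGGAA for the core bound by Ikaros-family factors, TGANTCA for AP-1, and GGAAA for the core bound by NFAT. In the runs, neighbouring or overlapping matches run together.
Ccr8, chr9:120091883-120092082, plus strand: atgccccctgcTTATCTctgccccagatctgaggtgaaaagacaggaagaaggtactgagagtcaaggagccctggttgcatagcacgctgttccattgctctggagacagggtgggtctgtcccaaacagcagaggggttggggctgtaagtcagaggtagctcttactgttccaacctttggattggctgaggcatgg
Ccr4, chr9:114496595-114496794, minus strand: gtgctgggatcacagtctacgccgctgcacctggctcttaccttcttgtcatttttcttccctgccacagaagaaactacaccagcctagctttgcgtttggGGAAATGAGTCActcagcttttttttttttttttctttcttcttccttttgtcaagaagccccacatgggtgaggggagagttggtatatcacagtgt
Ccr6, first start, chr17:8235793-8235992, plus strand: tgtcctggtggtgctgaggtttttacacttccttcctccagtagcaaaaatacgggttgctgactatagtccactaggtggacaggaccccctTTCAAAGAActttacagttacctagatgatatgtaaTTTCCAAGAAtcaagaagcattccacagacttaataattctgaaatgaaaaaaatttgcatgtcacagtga
Ccr6, second start, chr17:8242276-8242475, plus strand: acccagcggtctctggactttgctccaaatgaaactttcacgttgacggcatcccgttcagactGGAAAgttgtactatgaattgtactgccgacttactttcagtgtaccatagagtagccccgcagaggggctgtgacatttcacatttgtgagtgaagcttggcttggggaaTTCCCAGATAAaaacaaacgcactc

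The Ccr8 window held 1 GATA match, on the reverse strand, with its bases 239 to 234 before the start. GATA3 is the lineage factor of Th2 cells, and these letters occur in 8.42% of 32851 RefSeq windows of the same length. The Ccr4 window held 1 AP-1 match at 143 to 137 directly after 1 NFAT core match at 148 to 144, letters found in 5.57% and 48.5% of windows. These are factors of T cell receptor signalling. The first Ccr6 window held 2 STAT matches, at 157 to 149 and 120 to 112, the latter overlapping an NFAT core match, where 5.76% of windows hold at least 1 STAT match. The second Ccr6 window held an NFAT core match, and an Ikaros-family core match that shares 1 base with a GATA match, letters found in 17.9% and 8.42% of windows. The Cxcr4 window at the same distance held 1 NFAT core match alone. A match describes letters in a short window and says nothing of binding, and the absence of one says only that these letters are not there.

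Cxcr4 encodes the receptor for CXCL12. The gene (ENSMUSG00000045382) lies on chromosome 1 from 128588199 to 128592293, on the minus strand of GRCm38. Its normalized count was 715, 491 and 403 in WT against 228, 378 and 235 in Ikzf4-/- cells. Ikzf4-/- replicate 2 came near the lowest WT library, and the other two Ikzf4-/- libraries lay clearly below. The mean was 537 ± 161 (SD, n = 3) in WT and 280.3 ± 84.6 (SD, n = 3) in Ikzf4-/- cells, a log2 fold change of -0.93 (SE 0.22, 95% interval -1.43 to -0.44, adjusted p by limma = 0.0634). It was called without Ikzf4-/- replicate 2 (-1.17, adjusted p by limma = 0.0418) and without WT replicate 3 (-1.12, 0.0284), and not without any other library (adjusted p up to 0.212). The authors' deposited table held -0.94 for Cxcr4 and an adjusted p of 0.0780, also above the threshold.

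Ccr6 encodes the receptor for CCL20. The gene (ENSMUSG00000040899) lies on chromosome 17 from 8236043 to 8257141, on the plus strand of GRCm38. Its normalized count was 90.5, 176 and 199.9 in WT against 216, 268 and 287 in Ikzf4-/- cells. WT replicate 1 was well below the other libraries, and the highest WT library lay just under the lowest Ikzf4-/- library. The mean was 156 ± 57.6 (SD, n = 3) in WT and 257 ± 37.0 (SD, n = 3) in Ikzf4-/- cells, a log2 fold change of 0.79 (SE 0.26, 95% interval 0.22 to 1.36, adjusted p by limma = 0.140). Without WT replicate 1 the log2 fold change was 0.44 (adjusted p by limma = 0.213), and across the 6 fits without 1 library Ccr6 was called in 0, with adjusted p from 0.0616 to 0.344. The authors' deposited table gave 0.72 with an adjusted p of 0.0325.

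CCR6 is a receptor of Th17 cells. Il17f, a cytokine of these cells, was at 3.19, 27.0 and 15.5 in WT and 41.4, 46.1 and 48.2 in Ikzf4-/- libraries. The genotypes did not overlap, and Il17f was not called (adjusted p by limma = 0.121). In the authors' deposited table Il17f had a log2 fold change of 1.55 and an adjusted p of 0.0429, under the threshold. Its relative Il17a had no row. The part of Th17 markers in the Ccr6 values was not tested.

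Cxcr6 encodes the receptor for CXCL16. The gene (ENSMUSG00000048521) lies on chromosome 9 from 123806475 to 123811760, on the plus strand, inside Fyco1, which runs on the minus strand. How the counting used strand is not given in the sources used here, so reads of these overlapping genes cannot be told apart with certainty. The normalized count of Cxcr6 was 22.4, 40.4 and 45.6 in WT against 48.4, 39.8 and 26.1 in Ikzf4-/- cells, and the genotypes overlapped. The means were 36.1 ± 12.2 and 38.1 ± 11.2 (SD, n = 3 each), a log2 fold change of 0.09 (SE 0.35, adjusted p by limma = 0.922). The 95% interval ran from -0.67 to 0.85, so a difference of either sign within that range was not excluded. The gene had only 22.4 to 48.4 normalized reads per library. Fyco1 was at 469 to 562 in WT and 493 to 563 in Ikzf4-/- libraries.

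**Figure D2:**
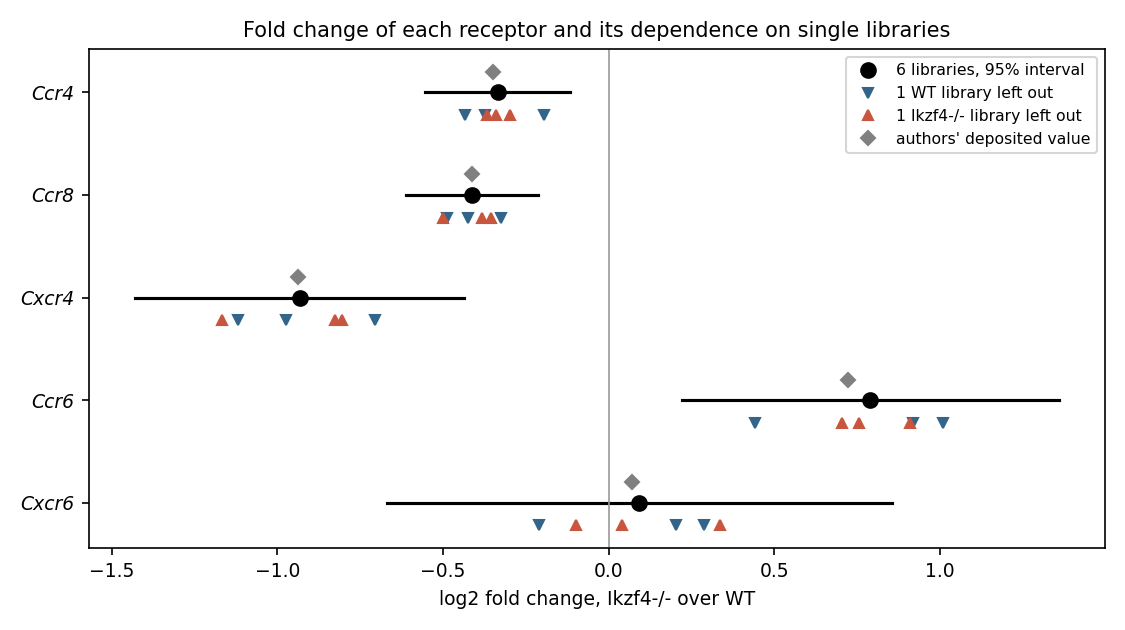
Log2 fold change of Ikzf4-/- over WT (horizontal axis) for each receptor: black points and lines give the value from 6 libraries with its 95% interval, triangles the 6 fits that each left out 1 library, and grey diamonds the authors' deposited value. Ccr4, Ccr8 and Cxcr4 stay below 0 and Ccr6 above 0 in each of these fits, while Cxcr6 runs from -0.21 to 0.33.

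Within each genotype the libraries ranked alike for Ccr4 and Ccr8, replicate 1 highest and replicate 3 lowest, and in the opposite order for Ccr6. Over all 6 libraries the order of Ccr4 and of Ccr8 was that of the first principal component of all genes, on which WT replicate 1 was at one end and Ikzf4-/- replicate 3 at the other. Cxcr4 kept this order in the WT but not in the Ikzf4-/- libraries. Whether what sets the libraries apart within a genotype also contributes to the difference between genotypes was not tested.

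Levels of different receptors were compared per kilobase of merged exons. Ccr8 stood first with 3520 ± 404 (SD, n = 3) normalized reads per kilobase in WT and 2643 ± 290 (SD, n = 3) in Ikzf4-/- cells, and Ccr4 second with 2952 ± 527 and 2319 ± 111 (SD, n = 3 each). Their ranges over the 6 libraries overlapped. The ratio of Ccr8 to Ccr4 per kilobase within a library was 1.08 to 1.25 with merged exons, above 1 in each library. With the longest transcript as length, a setting chosen after seeing the data, it was 0.981 to 1.13. The order of these neighbours thus depended on the choice of length. Cxcr4 came next at 297 ± 89.1 in WT and 155 ± 46.8 in Ikzf4-/- cells, and Ccr6 after it at 67.0 ± 24.8 and 110.8 ± 15.9 (SD, n = 3 each). In WT cells the levels of Cxcr4 and Ccr6 were far apart, 223 to 396 against 39.0 to 86.2 per kilobase. Ikzf4-/- replicates 1, 2 and 3 had 126 against 93.1, 209 against 115.5 and 130.02 against 124. Cxcr6 was low, at 18.7 ± 6.32 in WT and 19.7 ± 5.82 in Ikzf4-/- cells (SD, n = 3 each).

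**Figure D3:**
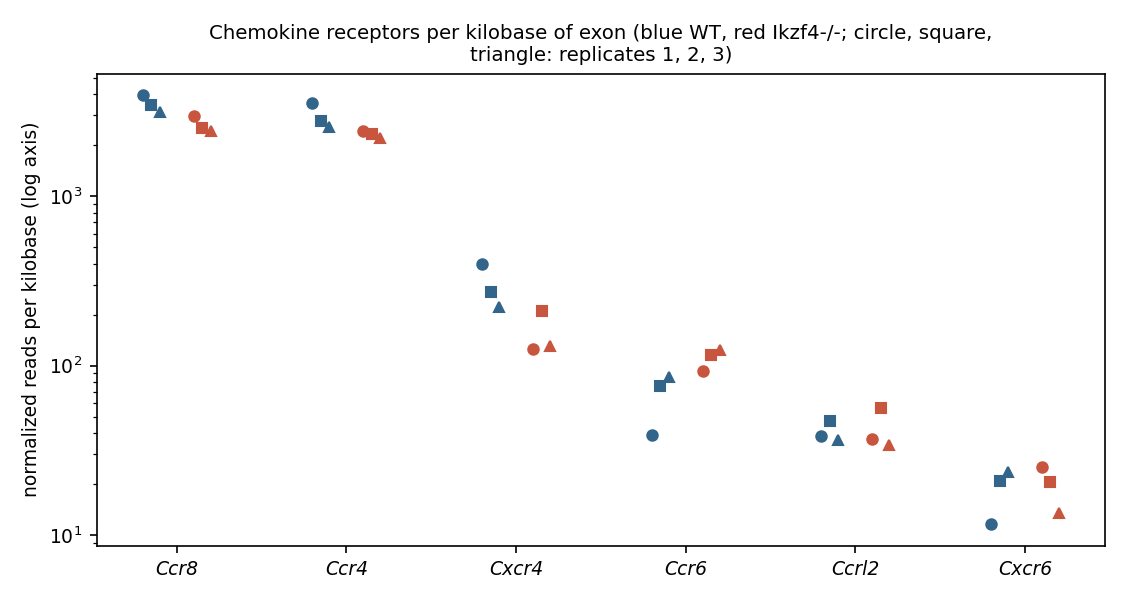
Normalized reads per kilobase of merged exons (vertical log axis) for the 5 measured effector receptors and Ccrl2, in WT (blue) and Ikzf4-/- (red) libraries, with symbols for replicates 1 to 3. Ccr8 and Ccr4 lie between 2202 and 3955, Cxcr4 between 126 and 396, and Ccr6 between 39.0 and 124. The gap between Cxcr4 and Ccr6 is narrower in Ikzf4-/- than in WT libraries, and narrowest in Ikzf4-/- replicate 3.

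Of 14 other and atypical chemokine receptors, such as Ccr1, Ccr3, Ccr10 and Cx3cr1, 2 had a row, and neither was called. Ccrl2, which binds the attractant chemerin without G protein signalling, was at 95.1 to 122.2 in WT and 88.4 to 146 in Ikzf4-/- libraries, and the genotypes overlapped.

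Of 11 ligands of the 7 receptors, 5 had a row and 0 were called in either direction (limma; 1 at an unadjusted p under 0.05, which 18.1% of all genes had, and 0 by the authors' deposited adjusted p). Their median log2 fold change was 0.30. Ccl1, the CCR8 ligand that T cells make themselves, was the most abundant. It was at 700.5, 2753 and 2497 in WT against 3842, 3803 and 3902 in Ikzf4-/- cells. The genotypes did not overlap, the Ikzf4-/- values lay within a narrow range, and WT replicate 1 was far below the other WT libraries. Its log2 fold change was 1.19 (SE 0.39, adjusted p by limma = 0.142). Without WT replicate 1 the log2 fold change was 0.55 and Ccl1 was called (adjusted p by limma = 0.000566). Ccl22, a CCR4 ligand, was at 27.7, 253 and 455 in WT and 44.4, 56.5 and 182 in Ikzf4-/- libraries, with a log2 fold change of -0.93 (adjusted p by limma = 0.614), and its genotypes overlapped. This value rested on single libraries: without WT replicate 1 it was -2.12 and called (adjusted p by limma = 0.0328), and without WT replicate 3 it was -0.13 (0.958), with -0.55 and -0.54 without WT replicate 2 or Ikzf4-/- replicate 1 and -1.55 without Ikzf4-/- replicate 3. Ccl17, the other CCR4 ligand, was at 11.7 to 21.4 in WT and 19.1 to 31.4 in Ikzf4-/- libraries. Ccl25, the CCR9 ligand, was at 167 to 220.3 in WT and 226 to 264 in Ikzf4-/- libraries, which did not overlap, with a log2 fold change of 0.30 (adjusted p by limma = 0.308). The CCR6 ligand Ccl20 and the CXCR4 ligand Cxcl12 had no row.

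Of 17 other chemokines, 8 had a row and 0 were called (limma; 1 at an unadjusted p under 0.05, and 0 by the authors' deposited adjusted p), with a median log2 fold change of 0.16. The most abundant were the inflammatory chemokines Ccl3 and Ccl4. Ccl3 was at 601, 2006 and 1879 in WT and 1764, 1522 and 1912 in Ikzf4-/- libraries, and Ccl4 at 474, 932 and 1183 against 1110, 1039 and 1349. Xcl1, or lymphotactin, was at 87.3, 394 and 306 in WT and 389, 244 and 443 in Ikzf4-/- libraries. In these 3 genes WT replicate 1 was the lowest of the 6 libraries and the genotypes overlapped.

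All 24 genes of signalling below the receptors had a row and 0 were called, although 7 had an unadjusted p under 0.05 in limma, against 18.1% of all genes, and the authors' deposited table called 4 of them, against 6.34% there. The median log2 fold change was -0.10, and 12 did not overlap between genotypes, 10 of them lower in Ikzf4-/- cells, where 23.1% of all genes did not overlap and 12.2% did so lower. Gnai2, the main inhibitory G protein subunit of lymphocytes, was at 23989 to 25998 in WT and 22120 to 24171 in Ikzf4-/- libraries (log2 fold change -0.10, adjusted p by limma = 0.335). Rac2, the haematopoietic Rac that drives actin at the leading edge, was at 19680, 18821 and 18501 in WT and 16805, 16561 and 17087 in Ikzf4-/- libraries. Its log2 fold change was -0.18 (adjusted p by limma = 0.0634) with no overlap, and the authors' deposited table called it with an adjusted p of 0.0125. Gnb1, a G protein beta subunit, and Tln1, the integrin-activating talin, had log2 fold changes of -0.08 and 0.06 (adjusted p by limma = 0.404 and 0.610).

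Of 14 genes of desensitization, which ends receptor signals, 12 had a row and 0 were called. Of these, 7 had an unadjusted p under 0.05 (18.1% over all genes) and the authors' deposited table called 4 (6.34% over its genes). Their median log2 fold change was 0.02, with 6 below and 6 above 0. Grk2, the kinase that marks active receptors for arrestin, was at 15046, 13090 and 13538 in WT and 11920, 11136 and 12036 in Ikzf4-/- libraries, a log2 fold change of -0.25 (adjusted p by limma = 0.0595). Arrb2, an arrestin that binds such receptors, had a log2 fold change of -0.23 (adjusted p by limma = 0.0763). Rgs1, which speeds the shut-off of inhibitory G proteins, pointed the other way, with 2819, 3564 and 3766 in WT and 4263, 4489 and 4551 in Ikzf4-/- libraries, a log2 fold change of 0.40 (adjusted p by limma = 0.0546). These 3 genes did not overlap between genotypes, and their adjusted p by limma lay above the threshold. Rgs1 was called without WT replicate 1 (0.0228) or 3 (0.0214), and Arrb2 without WT replicate 3 (0.0497). The authors' deposited table called all 3, with an adjusted p of 0.00386 for Grk2, 0.0162 for Arrb2 and 0.000654 for Rgs1. Grk6, a further receptor kinase, had a log2 fold change of -0.08 (adjusted p by limma = 0.427). Over all these lists 51 genes were tested, 26 with a fold change below and 25 above 0, and 20 did not overlap between genotypes, 14 lower and 6 higher in Ikzf4-/- cells, against 23.1% of all genes, 12.2% lower and 11% higher.

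**Figure D4:**
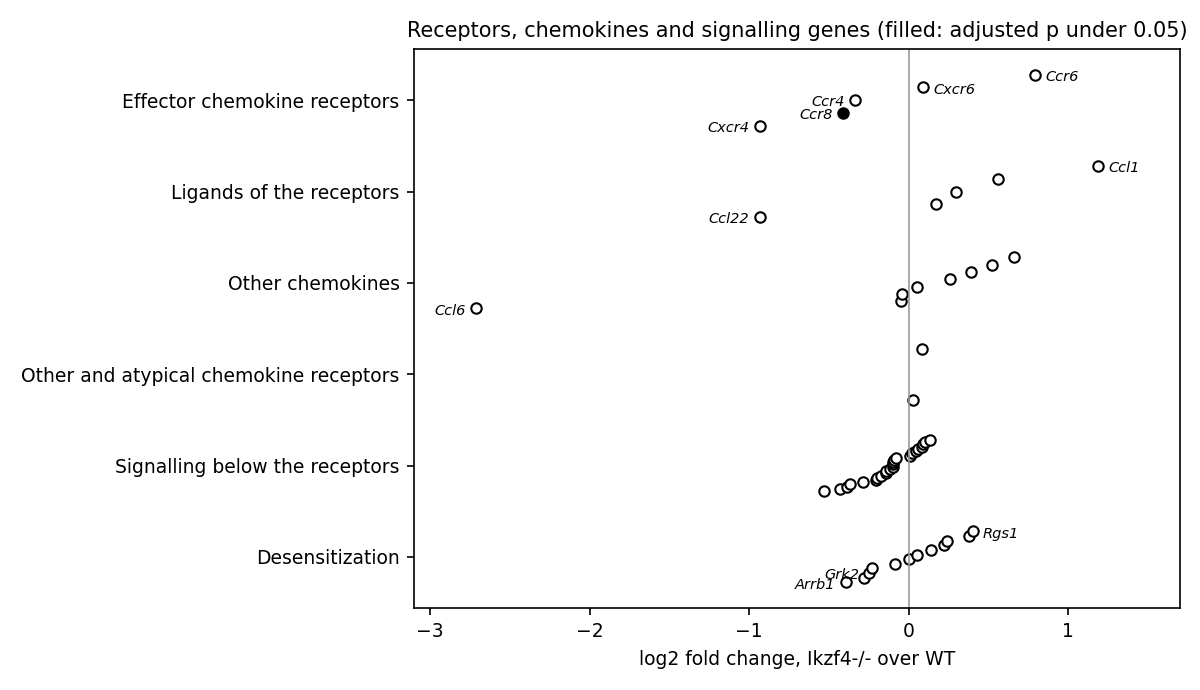
Log2 fold change of Ikzf4-/- over WT (horizontal axis) for each tested gene of the receptor, chemokine, signalling and desensitization lists (rows); filled points have an adjusted p under 0.05. Ccr8 is the 1 filled point; the far left point, Ccl6, was listed at 0 in Ikzf4-/- replicates 1 and 2, so its position depends on the pseudocount.

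Ccr4, Ccr8 and Cxcr6 share chromosome 9. Of 12 tested genes within 300 kb of Ccr8, 1 was called, where 1.77% of all genes tested were called. It was Csrnp1, an immediate early gene 107455 bp away, which fell from 3580 ± 155 to 3009 ± 56.6 (SD, n = 3 each), a log2 fold change of -0.25 (adjusted p by limma = 0.0407). This call was lost with equal library totals (0.0560), with the GC content and length correction (0.145) and in 5 of the 6 fits without 1 library, without WT replicate 1 (0.0561) or 2 (0.110) and without Ikzf4-/- replicate 1 (0.109), 2 (0.104) or 3 (0.120). Gm47050, a gene on the same strand 756 bp beyond the end of Ccr8 that was singled out after its values were seen, was at 634, 577 and 572 in WT and 471, 437 and 540.5 in Ikzf4-/- libraries, a log2 fold change of -0.30 (adjusted p by limma = 0.141). Within 300 kb of Ccr4, Ccr6, Cxcr4 and Cxcr6 there were 10, 8, 4 and 5 tested genes, and 0 of them were called. Their median log2 fold changes were -0.02, 0.01, -0.10 and -0.01. Around Ccr8 the median was -0.11, with a range from -0.90 to 1.52. The highest was that of Gm2449, at only 3.59 to 23.1 normalized reads per library and not called (adjusted p by limma = 0.164).

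Genes with the pattern most like a receptor's were ranked by Pearson correlation of log2 values over the 6 libraries, among 11596 genes with a mean of at least 50. Nearest to Ccr4 were Tgm2 (r = 0.998), a transglutaminase, Themis (0.998), a regulator of T cell receptor signals, and Usp25 (0.997), a deubiquitinase. Nearest to Ccr8 were Ppfia3 (0.995), Cadm4 (0.994) and Vim (0.994), the intermediate filament vimentin. As many as 247 genes had a correlation of at least 0.95 with Ccr4 and 162 with Ccr8, and all these values share the same 6 libraries. Tgm2 was at 15279, 4975 and 3610 in WT and 2599, 2484 and 1818 in Ikzf4-/- libraries, with WT replicate 1 far above the rest. It was not called (log2 fold change -1.52, adjusted p by limma = 0.0830) but was without WT replicate 1 (-0.90, 0.00852) or 3 (-1.94, 0.0216). Vim was at 27761, 23882 and 21897 in WT and 19356, 17170 and 15882 in Ikzf4-/- libraries and was called (log2 fold change -0.49, adjusted p by limma = 0.0291), a call lost without WT replicate 2 (0.0639) and without Ikzf4-/- replicate 2 (0.0858) or 3 (0.111).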

How the data were processed

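Total RNA of 3 WT and 3 Ikzf4-/- Th2 cultures was sequenced by a service company. Per the submitters' processing notes, Trimmomatic 0.36, STAR 2.5.2b and DESeq2 were used with the build GRCm38 (mm10), and the counting tool, its use of strand and the annotation are not given in the sources used here. The deposited table holds for each library a never-negative signal, read as counts divided by 1 size factor, since 100% of values were whole multiples of 1 step per library (within 0.01 reads). No count test was run, as a step close to 1, found in 2 Ikzf4-/- libraries (replicates 1 and 3), did not allow these columns to be accepted as recovered reads. The authors' log2 fold changes, p-values and adjusted p-values are in the same deposited table.

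Values were transformed to log2(value + 1), which understates the change of low genes. Genes with a mean of at least 10 were kept (14864 of 14868), and genotype was the only term of a limma fit (version 3.58.1, R 4.3.3) whose variance prior followed the mean. Two-sided p-values were Benjamini-Hochberg adjusted across these genes, and calls were made under 0.05. The procedure was tested on simulated data. Positions, exon lengths and GC content come from GENCODE M21 (GRCm38), matched by Ensembl identifier.

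The receptors, lists and tests were chosen with earlier results of these data known. Named were all receptors with a row, Ikzf4, each list's called genes and its 4 highest by mean, called genes within 300 kb of a receptor, and the 3 genes most like Ccr4 and Ccr8. Marker genes given singly were chosen after their values were seen. The marker lists were of CD4, CD8, natural killer, B, myeloid, regulatory, Th2, Th1 and Th17 cells. Some list and marker genes, and the sum of the Th17 list, are not reported here. CD8 T cell markers summed to 385 to 682 in WT and 429 to 658 in Ikzf4-/- libraries, natural killer cell markers to 353 to 1010 and 215 to 577, B cell markers to 51.1 to 83.6 and 58.6 to 90.4, and Th1 markers to 1393 to 3582 and 2006 to 3169. Alternatives were 3 other scalings, 2 other filters, a pseudocount of 0.1 or 10, a replicate block, array weights, a GC content and length correction with splines of 5 degrees of freedom, the authors' deposited calls and leaving out each library in turn.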

Additional observations from a re-analysis of the deposited data

How the results depend on the processing

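Ccr4, Ccr8 and Cxcr4 stayed below 0 and Ccr6 above 0 under each alternative run. Of 17 alternatives, Ccr8 kept its call in 9 and lost it in 8. The count of called receptors, 1 on all libraries, was 0 with equal library totals, a pseudocount of 0.1 or the GC content and length correction, 3 in the authors' deposited table, and 0 to 3 without 1 library. The count over ligand, signalling and desensitization genes, 0 on all libraries, was 7 with array weights, 8 in the authors' deposited table and 0 to 6 without 1 library. Over all genes it was 263, with 482 under array weights, 815 in the authors' deposited table and 20 (without Ikzf4-/- replicate 3) to 523 (without WT replicate 3) without 1 library. Fits without a library rest on 5, and some of them called fewer genes and some more. The cause of these differences was not tested.

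With the replicate number as a block, 754 genes were called, with 4 receptors (Ccr4, Ccr8, Cxcr4 and Ccr6) and 7 of the list genes. Deviations from the genotype means correlated at 0.145, 0.0122 and 0.142 between libraries of the same number. The values for replicates 1 and 3 were the highest of all pairs, whereas WT replicate 2 was closer to Ikzf4-/- replicate 3 (0.0491) than to its own number. The labels do not say whether libraries of the same number belong together, and these correlations cannot decide it.

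The genes whose sign turned were not called in these fits. Across the fits without 1 library the log2 fold change ran from -0.21 to 0.33 for Cxcr6, -0.17 to 0.70 for Ccl3, -0.061 to 0.19 for Ccl27a, -0.19 to 0.17 for Ccrl2 and -0.66 to 0.037 for Foxp3. Array weights put Cxcr6 at -0.022, and the GC content and length correction put Grk6 at 0.0069. Over the 30 named genes that are not effector receptors, direction and call held in 455 cases, the call was lost in 15 and gained in 30, and the sign reversed in 8.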
